A study of Homo sapiens with 12 samples.

Results

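The HOX cluster genes encode homeodomain transcription factors. The set described here held every gene with a HOXA, HOXB, HOXC or HOXD symbol except HOXB13, which gave 38 of the 60675 genes listed per library. They were 11 HOXA genes on chromosome 7, 9 HOXB genes on chromosome 17, 9 HOXC genes on chromosome 12 and 9 HOXD genes on chromosome 2. Members were taken by symbol, and the set itself was chosen with earlier results of these data known.

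Polyadenylated RNA was sequenced from 12 libraries of human prostate cancer cell lines, in 6 groups of 2. C4-2 is a castration-resistant line derived from LNCaP, and its 8 libraries came from cells kept in R1881 with no inhibitor, with namoline added, with TCE-5002 added, or with both added, called the combination. The 4 libraries labelled LNCaP, the androgen-dependent parental line, came from cells given R1881 alone or R1881 with the combination. R1881 is a synthetic androgen, and every library, controls included, came from cells that received it at 1 nM. Namoline inhibits the histone demethylase KDM1A and was used at 50 µM. TCE-5002 is selective for the histone demethylase KDM7A, and the study states that it also inhibits KDM7B (PHF8) and KDM2A. Its dose reads 100 µM in the series text but is lower in the methods of the study, and which of them applied to these libraries is not settled. Treatment lasted 72 h. No untreated or androgen-free library was analysed here. The study calls the paired libraries of each group biological replicates of a single line, so p-values cover the spread between such replicates. In the deposited file of LNCaP combination replicate 1, the column header names namoline but not TCE-5002, against its title. The calls of HOX members in that group were also made without this library. For the other genes named below, no result was computed without it.

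HOX genes lie in 4 clusters in which the order of the genes along the chromosome follows the order in which they are used along the body axis. Low paralogue numbers act towards the head and high numbers towards the tail, including the urogenital tract. Polycomb complexes keep unused clusters silent through H3K27 methylation, and Trithorax-type H3K4 methyltransferases hold used clusters active. HOX proteins bind DNA together with TALE homeodomain cofactors of the PBX and MEIS families. Prostate epithelium derives from the urogenital sinus, where HOX genes of the high paralogue groups are used.

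RefSeq promoter windows were found for 20 of the 38 members. The 250 bases before the start held a median of 19 CG dinucleotides over the members' 27 windows, against 11 over all 35116 windows of the table. CG-rich promoters are the usual type at HOX genes. Upstream sequence is shown for HOXD8, which rose with the combination in C4-2, and for HOXA6, which fell there. It is also shown for 2 genes of the HOXD8 cluster that do not lie next to it. These are HOXD11, which was nearly silent in C4-2, and HOXD13, which was called lower with the combination in both lines. The windows are from GRCh38.p14, run 5′ to 3′ on the gene's own strand and end before the start of the RefSeq transcript. In the Ensembl annotation behind the counts, the HOXD11 gene spans chr2:176104216-176109754 and the HOXA6 gene chr7:27145396-27150603, so both of these runs lie inside the genes as counted, downstream of the start given there. Capitals mark CG dinucleotides.
HOXD8, chr2:176129455-176129693, forward strand: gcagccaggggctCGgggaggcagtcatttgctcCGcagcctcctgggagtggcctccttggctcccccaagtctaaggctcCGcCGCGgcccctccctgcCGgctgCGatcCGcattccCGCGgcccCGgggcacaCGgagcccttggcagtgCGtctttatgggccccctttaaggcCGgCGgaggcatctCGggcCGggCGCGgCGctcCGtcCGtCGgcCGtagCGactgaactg
HOXD11, chr2:176107030-176107279, forward strand: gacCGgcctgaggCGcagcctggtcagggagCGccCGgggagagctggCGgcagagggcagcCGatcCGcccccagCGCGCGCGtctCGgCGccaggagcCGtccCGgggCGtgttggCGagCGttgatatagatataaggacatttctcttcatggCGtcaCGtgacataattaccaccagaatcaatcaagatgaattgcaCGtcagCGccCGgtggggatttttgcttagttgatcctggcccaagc
HOXD13, chr2:176092471-176092720, forward strand: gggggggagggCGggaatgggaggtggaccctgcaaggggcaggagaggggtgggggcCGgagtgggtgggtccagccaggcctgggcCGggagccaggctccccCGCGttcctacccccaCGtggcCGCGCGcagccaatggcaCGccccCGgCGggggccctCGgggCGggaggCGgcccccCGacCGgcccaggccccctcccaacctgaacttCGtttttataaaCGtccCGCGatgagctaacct
HOXA6, chr7:27147775-27148024, reverse strand: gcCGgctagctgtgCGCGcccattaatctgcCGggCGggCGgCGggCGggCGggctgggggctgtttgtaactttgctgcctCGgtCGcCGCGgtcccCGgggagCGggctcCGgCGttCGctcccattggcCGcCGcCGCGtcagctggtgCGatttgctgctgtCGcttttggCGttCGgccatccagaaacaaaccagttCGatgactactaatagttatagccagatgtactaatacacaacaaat
The HOXD8 run of 239 bases held 25 CG dinucleotides, the HOXD11 run of 250 bases held 23, the HOXD13 run 21 and the HOXA6 run 27. Over the full 250 bases, 15.9% of all windows held as many CG dinucleotides as that of HOXD8, and 30.2% held as many as that of HOXD13. The sequence TGACAG, a core bound by TALE homeodomains, was searched on both strands and was in none of the 4 shown, in 7.41% of the members' windows and in 13% of all windows. AGAACA, a half-site of the androgen receptor, was also in none of the 4, in 11.1% of the members' windows and in 12.4% of all windows.

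Library totals ran from 14791602 to 20690819 counts. Levels are given as CPM, the counts divided by library size with TMM scaling over all 12 libraries, and log2 fold changes come from edgeR's quasi-likelihood test with Benjamini-Hochberg adjustment over all genes. A gene was called at an adjusted p under 0.05 and at least a 2-fold change. Several luminal prostate markers were low in the libraries labelled LNCaP. In the LNCaP-labelled R1881 libraries, CDH1, the epithelial cadherin, was at 42.1 CPM against 978 in C4-2, and VIM, the mesenchymal intermediate filament, was at 687 CPM against 2.45. Over the list of 8 luminal markers, 6 were called higher in C4-2, and their summed level was 734 to 796 CPM in the LNCaP-labelled R1881 libraries and 3370 to 3516 in those of C4-2. Of 5 mesenchymal markers, 3 were called lower and 1, COL1A1, higher in C4-2, where CDH2 was at 0. CDH2, among the 3, was kept for testing only because of the LNCaP-labelled libraries. The summed level of the 5 was 775 to 868 CPM in the LNCaP-labelled R1881 libraries against 79.7 to 81.5 in those of C4-2. KLK3, an androgen-driven kallikrein, was at 376 CPM in the LNCaP-labelled libraries and 217 in C4-2. Differences between the lines below are differences between libraries with these labels, and the part of these markers in the HOX values was not tested.

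Counting used no strand and left out fragments that fell on several genes. Exons of HOXD4 overlapped other genes over 80.5% of their length, those of HOXD3 over 73%, those of HOXA7 over 62.5%, those of HOXC5 over 59.9% and those of HOXD1 over 57.4%. Their levels, and those of HOXA4 at 47.3% and HOXA6 at 40.1%, are uncertain for that reason. HOXA5, HOXB7, HOXB8, HOXB9, HOXC8, HOXC12, HOXD8 and HOXD13 had no such overlap. The members' median GC content was 55.0%, against 49.2% for the genes tested over both lines, and replicates differed along GC content, with a rank correlation across genes of -0.507 in the C4-2 TCE-5002 pair and 0.345 in the LNCaP combination pair.

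HOX expression was broad in the LNCaP-labelled libraries and narrow in C4-2. A mean of at least 1 CPM was reached by 32 of the 38 members in the LNCaP-labelled R1881 group and by 18 in the C4-2 R1881 group, and a mean of at least 10 CPM by 28 and 5. Summed over all members, the level was 1105 and 1067 CPM in the 2 LNCaP-labelled R1881 libraries and 138.7 and 139.2 CPM in those of C4-2. In such bulk samples, fewer expressing cells and less RNA per cell cannot be told apart. Every cluster was lower in C4-2. HOXA genes summed to 276 CPM ± 15.3 (SD, n = 2) in the LNCaP-labelled R1881 libraries and to 36.9 CPM ± 0.506 in C4-2. HOXB genes summed to 477 CPM ± 3.26 and 33.4 CPM ± 0.694. HOXC genes summed to 140.0 CPM ± 4.02 and 67.2 CPM ± 1.85, the closest of the 4 clusters. HOXD genes summed to 193 CPM ± 4.21 and 1.46 CPM ± 0.319, and no HOXD gene reached a mean of 1 CPM in C4-2 with R1881 alone.

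**Figure D1:**
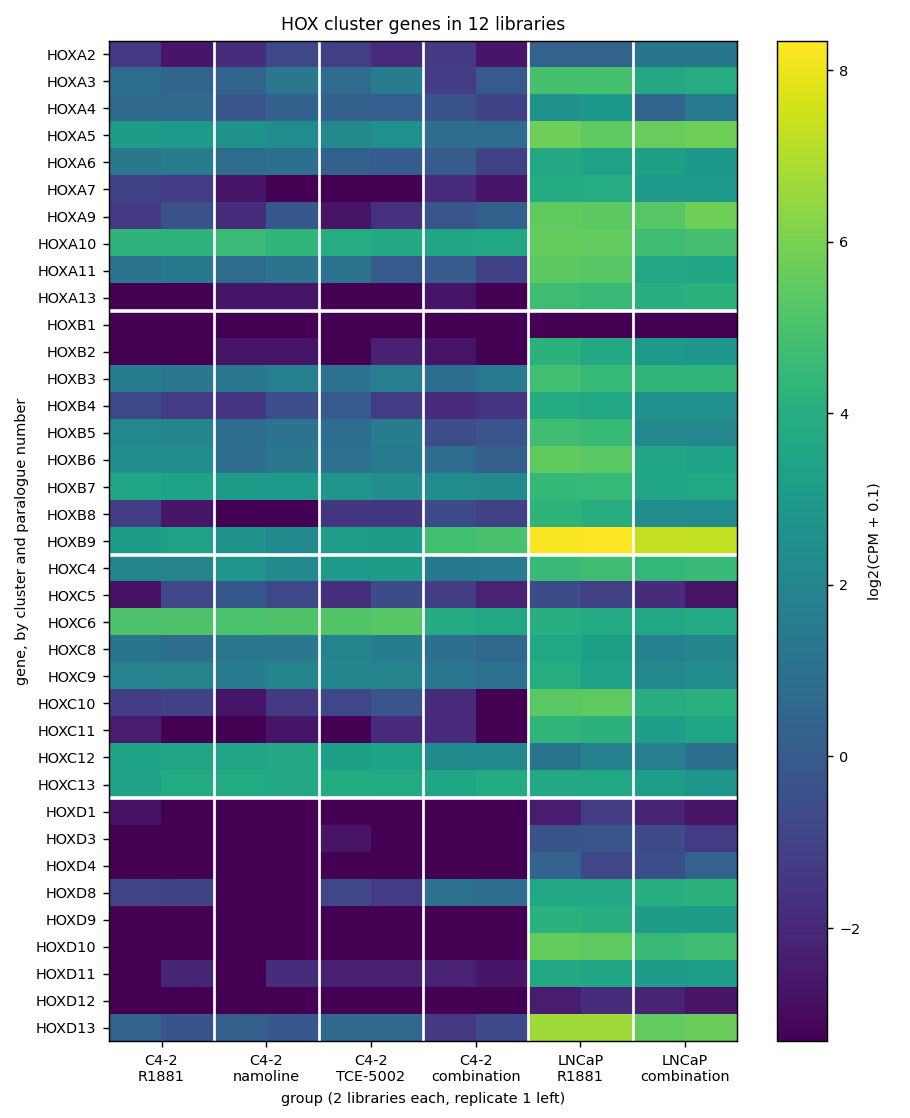
Level of 37 HOX cluster genes in each of the 12 libraries, as log2(CPM + 0.1), with genes ordered by cluster and paralogue number and white lines between clusters and groups. The LNCaP-labelled libraries are bright over nearly all rows and the C4-2 libraries over few, with the HOXD rows darkest in C4-2.

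Per kilobase of exon, the order of the genes also differed between the lines. In C4-2 with R1881, HOXC6 was highest at 9.62 CPM per kb, followed by HOXB7 at 7.43, HOXA10 at 5.13, HOXC13 at 5.07 and HOXA5 at 4.63. HOXC6 is known for raised expression in prostate tumours, and HOXA10 takes part in the development of the accessory sex glands. In the LNCaP-labelled R1881 libraries, HOXB9 was highest at 122 CPM per kb, followed by HOXD13 at 46.2, HOXA5 at 28.6, HOXC10 at 18.1 and HOXA11 at 17.7. Summed per kb, paralogue groups 9 to 13 stood at 288 in the LNCaP-labelled R1881 libraries and at 20.97 in C4-2, groups 4 to 8 at 128 and 31.7, and groups 1 to 3 at 19.8 and 1.20. The high paralogue groups held most of the HOX signal in the LNCaP-labelled libraries, and groups 4 to 8 most of it in C4-2.

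The comparison of the lines under R1881 alone asked how the castration-resistant line differs from the line labelled as its parent before any inhibitor. Of the 38 members, 34 passed the filter on low counts, and 2 of these were called higher and 30 lower in C4-2. Over all 19763 genes tested, 24.3% were called higher and 26.2% lower. The filter was passed by 12 members only because of the LNCaP-labelled libraries, and all 12 were called lower, as genes kept for being high in that group must tend to be. Of the other 22, 18 were called lower and 2 higher.

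Counts of 0 in all 8 C4-2 libraries were found for 5 members, HOXD4, HOXD9, HOXD10, HOXD12 and HOXB1. HOXD10, which patterns limbs and spinal motor neurons, was at 47.7 and 44.2 CPM in the LNCaP-labelled R1881 libraries. At a floor of 3 counts per library, that was at least 274-fold higher than in C4-2. HOXD9 was at 17.2 and 16.2 CPM and at least 99.5-fold higher. HOXA13, needed for the hand and the genital tubercle, was at 26.3 and 23.8 CPM in the LNCaP-labelled libraries and at 0 in both C4-2 R1881 libraries, which put it at least 149-fold higher. HOXB2, a hindbrain gene, was at 17.8 and 13.3 CPM, against 0 in both, at least 92.6-fold higher. These 4 genes were not detected in the C4-2 R1881 libraries at this depth, and HOXB2 and HOXA13 had 0 to 2 counts in each C4-2 inhibitor library. HOXB1 was at 0 in all 12 libraries, where a floor of 3 counts allows up to 0.168 CPM in the C4-2 R1881 group.

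HOXD13, which shapes digits and the urogenital tract, was at 1.22 and 0.715 CPM in the C4-2 R1881 libraries and at 103.2 and 103.8 CPM in the LNCaP-labelled ones. The log2 fold change was -6.65 ± 0.17 (SE, adjusted p = 3.44e-20). HOXB9, a gene of the posterior trunk, was at 8.67 and 10.01 CPM in C4-2 and at 307 and 325 CPM in the LNCaP-labelled libraries, a log2 fold change of -5.06 ± 0.11. HOXA9, known as a driver of acute leukaemia, was at 0.281 and 0.650 CPM against 45.4 and 41.9 CPM, and HOXA11, used in the uterus and forearm, at 2.06 and 2.54 CPM against 42.3 and 39.3 CPM. HOXC10 was at 0.328 and 0.390 CPM against 41.3 and 43.3 CPM, and its neighbour HOXC11 had 2 counts in C4-2 and 811 in the LNCaP-labelled libraries, a ratio of 343 with a 95% counting interval of 94.6 to 2835. HOXD11 had 2 and 536 counts, a ratio of 226 with an interval of 62.4 to 1875. In each of these genes the lowest LNCaP-labelled library lay above the highest C4-2 library, as it did in 44.8% of all genes tested.

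The HOXC cluster held the members that went the other way. HOXC12, at chr12:53954834-53958956 and known from hair follicles, was at 10.87 and 10.99 CPM in C4-2 and at 2.19 and 3.37 CPM in the LNCaP-labelled libraries. Its log2 fold change was 2.00 ± 0.23 (adjusted p = 2.53e-08). HOXC6, at chr12:53990624-54030823, was at 34.4 and 33.8 CPM against 15.6 and 13.9 CPM, a log2 fold change of 1.24 ± 0.13 (adjusted p = 3.87e-09). HOXC13, the hair and nail gene at the end of the cluster, was at 10.5 and 14.1 CPM against 13.2 and 12.2 CPM, and its groups overlapped. Its log2 fold change was -0.03 ± 0.17 and was not past the threshold. HOXB7 was at 12.1 and 10.7 CPM against 21.8 and 22.6 CPM, and its log2 fold change of -0.93 ± 0.13 missed the 2-fold mark only. Among the other members of the cluster, HOXC4, HOXC8 and HOXC9 were called lower in C4-2, with log2 fold changes of -2.69 ± 0.16, -2.43 ± 0.24 and -1.79 ± 0.21. C4-2 therefore kept the end of the HOXC cluster and HOXC6 at levels equal to or above those of the LNCaP-labelled libraries, while HOXC10 and HOXC11, which lie between HOXC12 and HOXC6, were near 0.

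**Figure D2:**
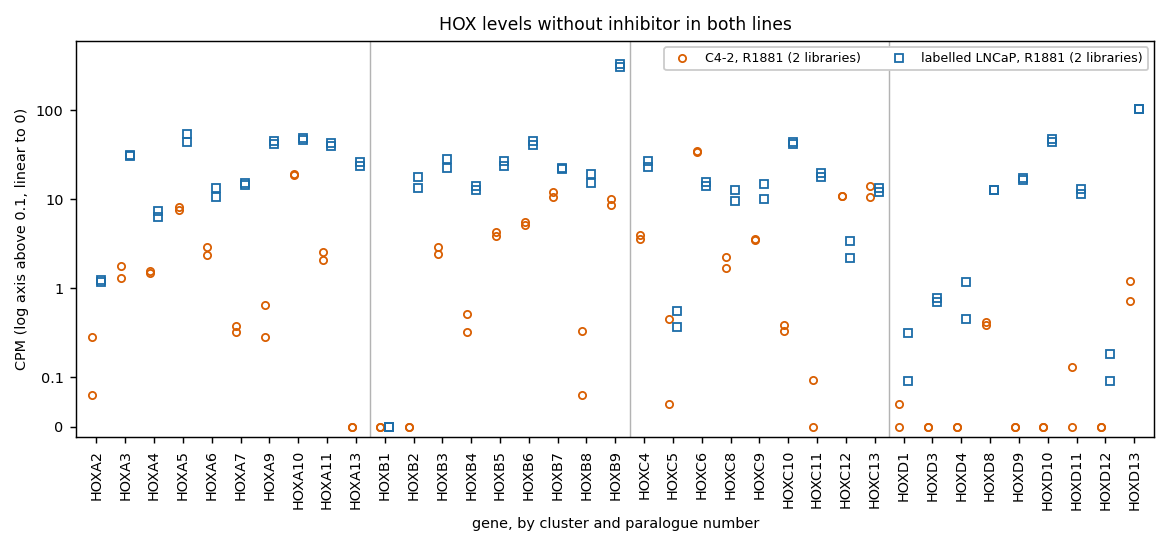
CPM of 37 HOX genes in the 2 C4-2 libraries (circles) and the 2 LNCaP-labelled libraries (squares) given R1881 alone, on an axis that is logarithmic above 0.1 CPM and linear to 0. HOXC12 and HOXC6 are the genes with both circles above both squares, HOXA13, HOXB2, HOXD3, HOXD4, HOXD9, HOXD10 and HOXD12 have both circles at 0, and HOXB1 is at 0 under both labels.

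Values between the extremes filled in the rest of the clusters. In the HOXB cluster, HOXB3, a hindbrain gene, was at 2.91 and 2.41 CPM in C4-2 against 27.99 and 22.2 CPM in the LNCaP-labelled libraries. HOXB4, known for expanding blood stem cells, was at 0.516 and 0.325 CPM in C4-2 against 14.2 and 12.7 CPM in the LNCaP-labelled libraries. HOXB5 was at 4.26 and 3.902 CPM in C4-2 against 26.7 and 23.6 CPM in the LNCaP-labelled libraries, and HOXB6 at 5.16 and 5.53 CPM in C4-2 against 44.6 and 40.8 CPM in the LNCaP-labelled libraries. HOXB8 was at 0.328 and 0.06503 CPM in C4-2 against 19.2 and 15.2 CPM in the LNCaP-labelled libraries. All 5 were called lower in C4-2. In the HOXC cluster, HOXC4 was at 3.94 and 3.58 CPM in C4-2 against 22.96 and 26.8 CPM in the LNCaP-labelled libraries. HOXC8, used in the thoracic body wall, was at 2.25 and 1.69 CPM in C4-2 against 12.6 and 9.52 CPM in the LNCaP-labelled libraries. HOXC9 was at 3.47 and 3.58 CPM in C4-2 against 14.8 and 10.1 CPM in the LNCaP-labelled libraries. These 3 kept a few CPM in C4-2, unlike HOXC10 and HOXC11. HOXD11, which shapes the forearm and kidney, was at 0 and 0.1301 CPM in C4-2 against 13.1 and 11.6 CPM in the LNCaP-labelled libraries. HOXA4 was at 1.55 and 1.496 CPM in C4-2 against 6.29 and 7.29 CPM in the LNCaP-labelled libraries, and HOXA6 at 2.34 and 2.93 CPM in C4-2 against 13.2 and 10.5 CPM in the LNCaP-labelled libraries. HOXA2 was at 0.281 and 0.06503 CPM in C4-2 against 1.16 and 1.23 CPM in the LNCaP-labelled libraries.

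The remaining members called lower in C4-2 formed long stretches of the HOXA and HOXB clusters. The HOXA genes reported here were all called lower. HOXA7 was at 0.375 and 0.325 CPM against 14.3 and 15.03 CPM, and HOXA3, which acts in the thymus and parathyroid, at 1.78 and 1.30 CPM against 31.1 and 30.7 CPM. HOXA5 was at 8.25 and 7.54 CPM against 53.8 and 43.9 CPM, and HOXA10 at 19.2 and 18.8 CPM against 48.5 and 46.6 CPM, with the smallest HOXA log2 fold change at -1.29 ± 0.11. The anterior gene HOXA2 was low under both labels. Of the HOXB genes, HOXB3, HOXB4, HOXB5, HOXB6 and HOXB8 were called lower with log2 fold changes from -2.59 for HOXB5 to -6.23 for HOXB8. Within the HOXD cluster, HOXD8 was at 0.422 and 0.390 CPM against 12.8 and 12.6 CPM. Members that never reached a mean of 1 CPM in any group were HOXC5, HOXB1, HOXD12, HOXD3, HOXD4 and HOXD1. HOXD3 and HOXD4, with 32 and 35 counts in the LNCaP-labelled R1881 libraries and 0 in C4-2, were at least 4.39-fold and 4.83-fold higher there.

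In C4-2 the combination lowered many of the HOX genes that were still expressed and raised 2. Of 22 members tested, 11 were called lower and 2 higher, where 12.8% of all 17702 genes tested were called lower and 8.87% higher. The median log2 fold change of the 22 was -1.17, against -0.03 over all genes tested. Summed over the set, the level was 138.7 and 139.2 CPM with R1881 alone and 96.6 and 97.8 CPM with the combination. HOXA genes fell from 36.9 CPM ± 0.506 to 18.2 CPM ± 0.725 in sum and HOXC genes from 67.2 CPM ± 1.85 to 37.4 CPM ± 0.757, sums to which no test was applied. HOXB genes stood at 33.4 CPM ± 0.694 and 39.3 CPM ± 2.37, and HOXB9 held 28.1 and 31.3 CPM of the latter. By position, groups 4 to 8 went from 31.7 to 12.4 summed CPM per kb, while groups 9 to 13 were at 20.97 and 23.5. Without HOXB9, groups 9 to 13 stood at 17.4 and 11.98.

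**Figure D3:**
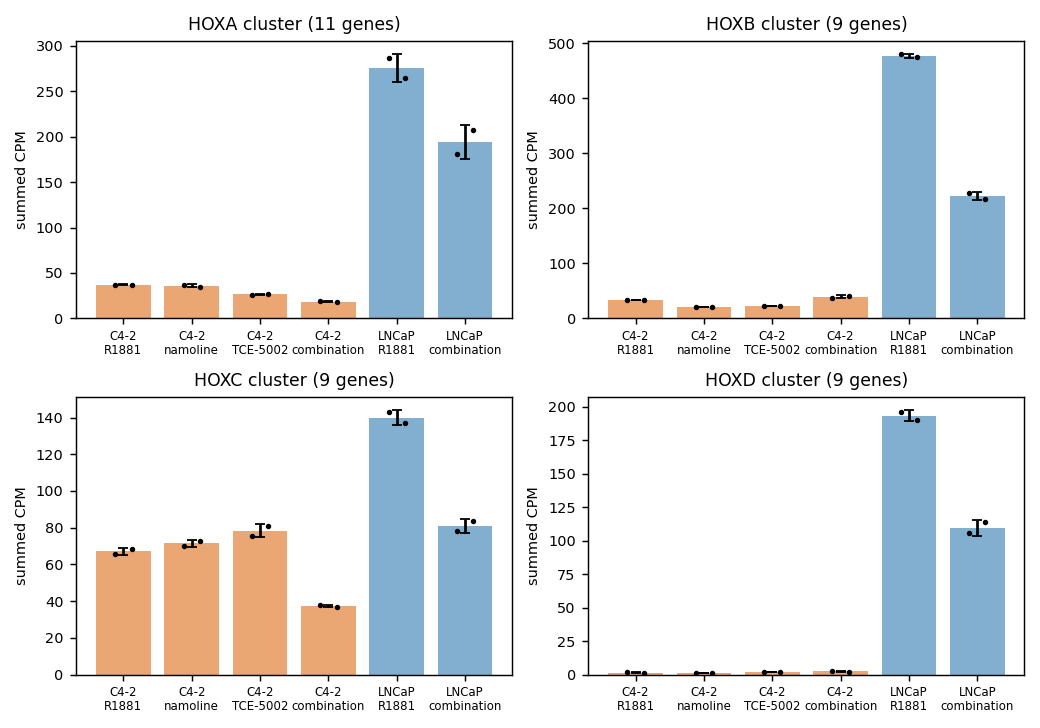
Summed CPM of each HOX cluster in the 6 groups (bars: mean of 2 libraries, error bars: SD, points: libraries), with a separate axis from 0 for each cluster. The combination bar lies below the R1881 bar in every LNCaP-labelled panel, and in C4-2 for HOXA and HOXC only.

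HOXB9, at chr17:48621159-48626356, was at 8.67 and 10.01 CPM in the controls, 6.28 and 4.50 CPM under namoline, 9.18 and 8.42 CPM under TCE-5002 and 28.1 and 31.3 CPM under the combination. Only the combination libraries lay above the controls. The log2 fold change of the combination against R1881 was 1.65 ± 0.17 (adjusted p = 3.34e-06). HOXD8, at chr2:176129694-176132695, was at 0.422 and 0.390 CPM in the controls, at 0 in both namoline libraries, at 0.467 and 0.322 CPM with TCE-5002 and at 1.99 and 1.69 CPM with the combination. These rest on 15 counts with R1881 alone and 62 with the combination, and the log2 fold change was 2.13 ± 0.46 (adjusted p = 0.00171). Both calls stood without any single library. HOXA9 had means of 0.466 CPM with R1881 alone and 0.933 with the combination, and its log2 fold change of 1.02 ± 0.66 did not pass the test (adjusted p = 0.209).

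The members that fell with the combination in C4-2 came from all 4 clusters. HOXA5, a regulator of lung and breast differentiation, was at 8.25 and 7.54 CPM with R1881 alone and at 1.70 and 1.63 CPM with the combination, a log2 fold change of -2.27 ± 0.24 (adjusted p = 4.02e-06). HOXB5, a gene of gut and vascular development, was at 4.27 and 3.90 CPM and then 0.568 and 0.752 CPM, a log2 fold change of -2.65 ± 0.35. HOXB6 was at 5.16 and 5.53 CPM and then 1.59 and 1.07 CPM, a log2 fold change of -2.02 ± 0.30. HOXB7 was at 12.1 and 10.7 CPM and then 4.83 and 4.57 CPM, a log2 fold change of -1.30 ± 0.19. In these 4 genes the highest combination library lay below the lowest control, as it did in 40.7% of all genes tested. HOXC6 went from 34.4 and 33.8 CPM to 14.4 and 12.3 CPM, and HOXC12 from 10.87 and 10.99 CPM to 4.72 and 4.196 CPM, with log2 fold changes of -1.37 ± 0.14 and -1.32 ± 0.18. Both are the members that stood higher in C4-2 than in the LNCaP-labelled libraries at the start, and the LNCaP-labelled R1881 libraries held 15.6 and 13.9 CPM of HOXC6 and 2.19 and 3.37 CPM of HOXC12.

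The other 5 members fell from lower levels. HOXA6 was at 2.34 and 2.93 CPM with R1881 alone and 0.909 and 0.376 CPM with the combination, a log2 fold change of -2.02 ± 0.40. HOXA11 was at 2.06 and 2.54 CPM and then 0.909 and 0.376 CPM, a log2 fold change of -1.82 ± 0.46. HOXA4 was at 1.55 and 1.496 CPM and then 0.682 and 0.376 CPM, HOXA3 at 1.78 and 1.30 CPM and then 0.341 and 0.877 CPM, and HOXD13 at 1.22 and 0.715 CPM and then 0.284 and 0.501 CPM. Their log2 fold changes were -1.52 ± 0.44, -1.40 ± 0.51 and -1.36 ± 0.51 (adjusted p = 0.00979, 0.0342 and 0.0361). Each of these 3 rested on 38 counts or fewer per library. HOXD13 lost its call without control replicate 1 (log2 fold change -0.89), combination replicate 1 (-0.999) or combination replicate 2 (-1.79, adjusted p = 0.0593), HOXA3 without control replicate 1 (-1.13, adjusted p = 0.188) or combination replicate 1 (-0.85), HOXA4 without control replicate 1 (-1.49, adjusted p = 0.0568) or combination replicate 2 (-1.16, adjusted p = 0.105), and HOXA11 without combination replicate 2 (-1.33, adjusted p = 0.0626). DESeq2 did not call HOXD13 or HOXA3 (adjusted p = 0.113 and 0.055).

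Members that did not pass the 2 criteria with the combination included some that are well expressed. HOXC13 was at 10.5 and 14.1 CPM with R1881 alone and at 11.4 and 14.3 CPM with the combination, and its groups overlapped. HOXA10 was at 19.2 and 18.8 CPM and then 11.7 and 12.2 CPM. Its log2 fold change of -0.70 ± 0.15 passed the test but not the 2-fold mark (adjusted p = 0.00156). HOXC9 behaved likewise at -0.76 ± 0.27 (adjusted p = 0.029). HOXB3, HOXB4, HOXC4 and HOXC8 had log2 fold changes between -1.05 and -0.31 and did not pass the test. The androgen-driven markers also moved in these libraries. KLK3 had a log2 fold change of -2.19 and KLK2 one of -1.41, and both were called lower with FOLH1 among the 8 luminal markers. ZEB1, a mesenchymal regulator, went from a mean of 0.426 to 5.66 CPM, while VIM and FN1 of the same list were called lower. Over the lists, the 8 luminal markers summed to 2268 to 2295 CPM with the combination and the 5 mesenchymal markers to 86.8 to 102.1 CPM, with CDH2 at 0 in both libraries.

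**Figure D4:**
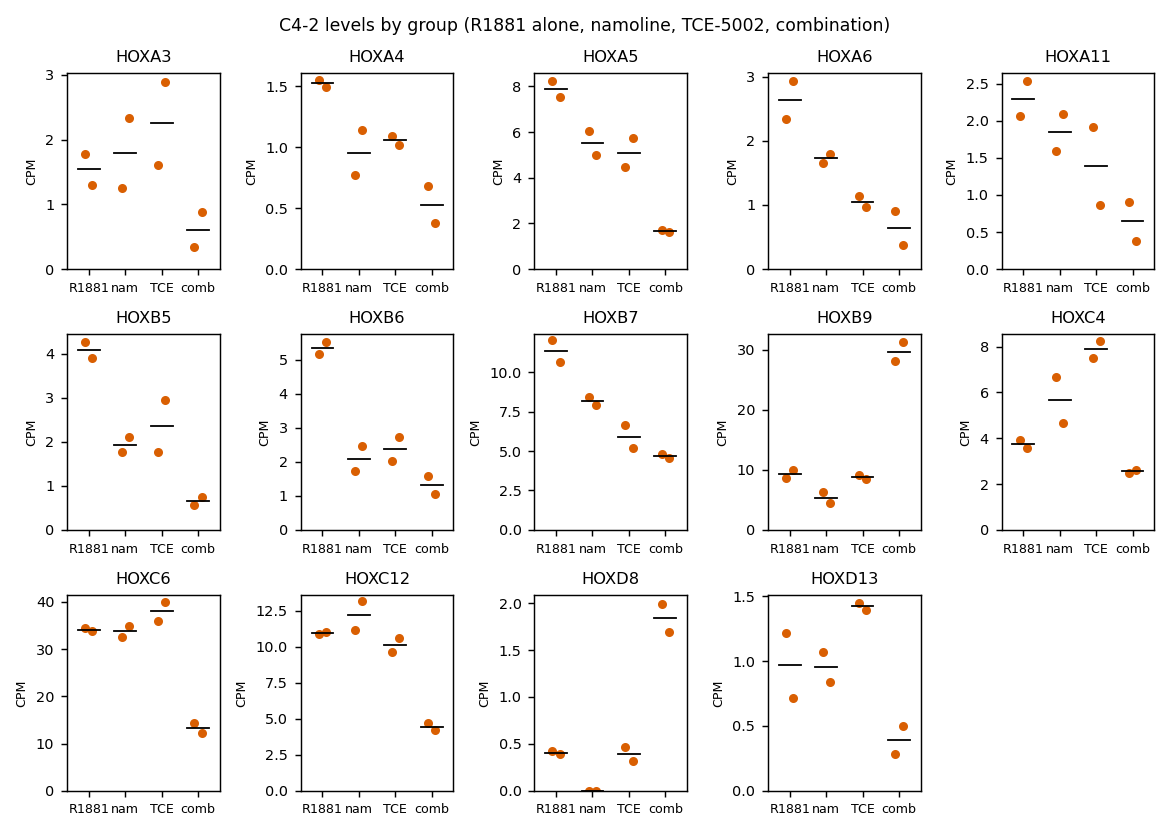
CPM in the C4-2 libraries for the 14 HOX genes called in at least 1 comparison of an inhibitor group with R1881 alone (points: libraries, lines: means, each axis from 0). HOXB9 and HOXD8 are highest with the combination (28.1 and 31.3 CPM and 1.99 and 1.69 CPM), HOXC4 is highest with TCE-5002, and in the other 11 the combination libraries are lowest on average.

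The single inhibitors changed few HOX genes in C4-2. With namoline, 3 of 22 members were called lower and 0 higher by edgeR, where 6.88% of all genes tested were called lower and 5.17% higher. At an unadjusted p under 0.05, 1 member was higher, and DESeq2 also called 0 higher. HOXB6 was at 1.72 and 2.46 CPM with namoline, against 5.16 and 5.53 CPM with R1881 alone, a log2 fold change of -1.37 ± 0.28 (adjusted p = 0.00168). HOXB5 was at 1.78 and 2.10 CPM against 4.27 and 3.90 CPM, a log2 fold change of -1.09 ± 0.30 (adjusted p = 0.0108). HOXB5 lost its call without control replicate 1 (-1.01, adjusted p = 0.0869) or namoline replicate 1 (-0.999, adjusted p = 0.0697). HOXD8 went from 15 counts to 0, so it was at least 2.27-fold lower at a floor of 3 counts per library. The other HOXB genes with a change in the same direction were HOXB9, at -0.80 ± 0.19 (adjusted p = 0.00491), and HOXB7, at -0.49 ± 0.18 (adjusted p = 0.0473), neither of them 2-fold. The HOXB sum was 20.96 and 20.8 CPM with namoline against 33.9 and 32.9 CPM, while the HOXA and HOXC sums were 35.9 CPM ± 1.77 and 71.6 CPM ± 1.84.

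With TCE-5002, 2 of 22 members were called lower and 1 higher, where 6.8% of all genes tested were called lower and 5.04% higher. HOXB6 was again lower, at 2.02 and 2.74 CPM, a log2 fold change of -1.16 ± 0.27 (adjusted p = 0.0039). HOXA6 was at 1.14 and 0.965 CPM against 2.34 and 2.93 CPM, a log2 fold change of -1.31 ± 0.36 (adjusted p = 0.0109). HOXC4 was higher, at 7.52 and 8.26 CPM against 3.94 and 3.58 CPM, a log2 fold change of 1.06 ± 0.22 (adjusted p = 0.00184). All 3 calls lay close to the 2-fold mark. HOXB6 lost it without TCE-5002 replicate 1 (-0.97), HOXC4 without control replicate 2 (0.999) or with GC correction (0.998), and HOXA6 the test without control replicate 2 (-1.15, adjusted p = 0.082). HOXB7, at -0.94 ± 0.19, HOXB5, at -0.80 ± 0.29, HOXA5, at -0.63 ± 0.21, and HOXA10, at -0.43 ± 0.15, passed the test without reaching 2-fold, and so did HOXC8 in the other direction, at 0.75 ± 0.28 (adjusted p = 0.0487). The luminal markers stood at 4836 to 4895 CPM in sum with TCE-5002, with KLK2, KLK3 and TMPRSS2 called higher. Both single inhibitors and the combination were compared with the same 2 control libraries, so these lists are not independent of each other.

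Most expressed members were not called with either single inhibitor. HOXC6 was at 32.5 and 34.98 CPM with namoline and 36.03 and 40.1 CPM with TCE-5002, and HOXC12 at 11.2 and 13.1 CPM with namoline and 9.64 and 10.6 CPM with TCE-5002. HOXC13 was at 13.9 and 12.96 CPM with namoline and 14.2 and 13.9 CPM with TCE-5002. None of these 3 passed the test with either inhibitor. HOXA10 was at 24.4 and 20.4 CPM with namoline and 14.7 and 13.5 CPM with TCE-5002, and HOXA5 at 6.04 and 4.98 CPM with namoline and 4.46 and 5.74 CPM with TCE-5002. HOXB7 was at 8.41 and 7.92 CPM with namoline and 6.63 and 5.202 CPM with TCE-5002. HOXB5 was at 1.76 and 2.95 CPM with TCE-5002, and HOXA6 at 1.66 and 1.8 CPM with namoline. HOXC4 was at 6.69 and 4.68 CPM with namoline, and its log2 fold change of 0.58 ± 0.23 did not pass the test (adjusted p = 0.0622). HOXA3 was at 1.24 and 2.34 CPM with namoline and 1.61 and 2.896 CPM with TCE-5002, HOXA4 at 0.7698 and 1.14 CPM with namoline and 1.09 and 1.02 CPM with TCE-5002, and HOXA11 at 1.599 and 2.1 CPM with namoline and 1.92 and 0.858 CPM with TCE-5002. HOXD13 was at 1.07 and 0.84 CPM with namoline and 1.45 and 1.39 CPM with TCE-5002. None of these 4 passed the test with either inhibitor. HOXC8 was at 2.43 and 2.34 CPM with namoline and 3.73 and 3.003 CPM with TCE-5002 and at 1.88 and 1.38 CPM with the combination. HOXC9 was at 2.67 and 3.96 CPM with namoline and 3.99 and 3.59 CPM with TCE-5002 and at 2.27 and 1.94 CPM with the combination. HOXB3 was at 2.49 and 3.18 CPM with namoline and 2.07 and 3.06 CPM with TCE-5002 and at 1.76 and 2.63 CPM with the combination. HOXB3 overlapped its control in every inhibitor group. HOXB4 was at 0.237 and 0.6 CPM with namoline and 0.881 and 0.322 CPM with TCE-5002 and at 0.1704 and 0.251 CPM with the combination. HOXA9 was at 0.178 and 0.84 CPM with namoline and 0.0518 and 0.214 CPM with TCE-5002 and at 0.739 and 1.13 CPM with the combination. HOXB2, HOXA2, HOXA7, HOXA13, HOXB8, HOXC10, HOXC11 and HOXD11 were under 1 CPM in every C4-2 library and too low to be tested there.

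Against namoline alone, the combination had 9 members called lower and 2 higher, where 14.7% and 12.8% of all genes tested were called. Against TCE-5002 alone it had 8 called lower and 3 higher, where the shares were 14.3% and 11.7%. HOXB9 was higher than with either inhibitor, with log2 fold changes of 2.45 ± 0.18 against namoline and 1.73 ± 0.17 against TCE-5002. HOXD8 was at least 10.3-fold higher than with namoline, and 2.18 ± 0.46 higher on the log2 scale than with TCE-5002. HOXC6, HOXC12, HOXA5 and HOXB5 were lower than with either, and HOXC6 had log2 fold changes of -1.35 ± 0.14 and -1.53 ± 0.14. HOXC4, at 2.50 and 2.63 CPM with the combination, was lower than with TCE-5002 by a log2 fold change of -1.64 ± 0.23. Leaving out single libraries left 6 to 7 members lower against namoline and 7 to 10 against TCE-5002, and 2 to 3 higher against TCE-5002.

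The interaction asked whether the combination differed from the sum of the single effects on the log2 scale, taking the effect of both together and subtracting that of namoline and that of TCE-5002. Of 22 members, 7 were called lower and 2 higher, where 18.6% and 16.7% of all genes tested were called. HOXB9 had an interaction of 2.53 ± 0.26 (adjusted p = 1.53e-06), and neither inhibitor alone raised it. HOXD8 was also called higher, but its size has no upper bound because the namoline libraries held 0 counts. At the floor of 3 counts, the combination was at least 10.3-fold above namoline. HOXC4 had -2.22 ± 0.33 (adjusted p = 4.92e-05), with means of 5.69 CPM for namoline and 7.89 for TCE-5002 above the control's 3.76 and the combination's 2.57 below it. HOXC6 had -1.51 ± 0.19 and HOXC12 -1.35 ± 0.25, and neither was called with a single inhibitor. With GC correction, HOXC12 had -0.97 and lost its call. HOXA3, HOXA5, HOXC8 and HOXD13 were called lower as well, with sizes from -2.10 to -1.10, and each lost its call without at least 1 library. Without namoline replicate 2, HOXA3 had -1.58 (adjusted p = 0.0971), and without combination replicate 1 it had -1.57 (adjusted p = 0.0804). HOXA5 had -0.92 without TCE-5002 replicate 2 and -0.94 without namoline replicate 1. HOXC8 had -1.14 (adjusted p = 0.059) without control replicate 2 and -1.08 (adjusted p = 0.0768) without combination replicate 2, and HOXD13 had -1.52, -1.62 and -1.46 without control replicate 2, namoline replicate 1 and combination replicate 1. HOXB5, HOXB6, HOXB7 and HOXA6, all lower with the combination, had no called interaction, with values from -0.76 ± 0.49 to 0.51 ± 0.43.

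In the LNCaP-labelled libraries the combination also lowered HOX genes. Of 34 members tested with edgeR, 12 were called lower and 0 higher, where 11.3% of all 17565 genes tested were called lower and 7.44% higher. At an adjusted p alone, 2 were higher and 23 lower, where 28% and 28.2% of all genes tested were. At an unadjusted p under 0.05, 2 were higher, and DESeq2 called 0 higher. The median log2 fold change of the 34 was -0.78, against -0.0049 over all genes tested. The HOX sum went from 1105 and 1067 CPM to 593 and 622 CPM. In sum HOXB genes went from 477 CPM ± 3.26 to 223 CPM ± 7.06, HOXD genes from 193 CPM ± 4.21 to 109.6 CPM ± 5.90, HOXC genes from 140.0 CPM ± 4.02 to 81.1 CPM ± 3.72 and HOXA genes from 276 CPM ± 15.3 to 194 CPM ± 18.5.

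HOXB5 had the largest change of these, from 26.7 and 23.6 CPM to 4.30 and 4.06 CPM, a log2 fold change of -2.53 ± 0.17 (adjusted p = 1.11e-13). HOXB6 went from 44.6 and 40.8 CPM to 11.4 and 10.7 CPM, a log2 fold change of -1.89 ± 0.14. HOXB8, used in myeloid cells and the spinal cord, went from 19.2 and 15.2 CPM to 5.09 and 5.08 CPM, a log2 fold change of -1.70 ± 0.18. HOXA11 went from 42.3 and 39.3 CPM to 12.4 and 11.99 CPM, a log2 fold change of -1.68 ± 0.14. HOXA4 went from 6.29 and 7.29 CPM to 1.27 and 2.69 CPM, and HOXC8 from 12.6 and 9.52 CPM to 3.40 and 3.86 CPM. HOXC9, HOXC10, HOXB4, HOXB2, HOXA3 and HOXD13 were called lower with log2 fold changes from -1.38 ± 0.21 for HOXC9 to -1.02 ± 0.11 for HOXD13. In each of the 12 the highest combination library lay below the lowest control, as it did in 42% of all genes tested. Without replicate 1, the library whose header lacks TCE-5002, HOXD13 had -0.97 and HOXA3 -0.98, just under 2-fold, while both passed the test. HOXB2 had -0.83 without control replicate 1 and -0.99 without combination replicate 2.

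The other members called lower in the LNCaP-labelled libraries lay in all 4 clusters. HOXD13 went from 103 and 104 CPM to 46.9 and 50.7 CPM. HOXC10 went from 41.3 and 43.3 CPM to 15.5 and 16.8 CPM, and HOXC9 from 14.8 and 10.1 CPM to 4.24 and 4.88 CPM. HOXA3 went from 31.1 and 30.7 CPM to 13.2 and 15.03 CPM. The R1881 libraries of HOXC9 were the farthest apart of these 4. HOXB4 went from 14.2 and 12.7 CPM to 5.64 and 5.64 CPM, and HOXB2 from 17.8 and 13.2 CPM to 7.52 and 6.86 CPM. Of those that passed the test below 2-fold, HOXD10 went from 47.7 and 44.2 CPM to 23.8 and 26.7 CPM, HOXD9 from 17.2 and 16.2 CPM to 8.61 and 8.03 CPM, and HOXD11 from 13.1 and 11.6 CPM to 8.55 and 8.99 CPM. HOXA10 went from 48.5 and 46.6 CPM to 26.2 and 29.5 CPM, HOXA7 from 14.2 and 15.03 CPM to 7.64 and 7.62 CPM, HOXA13 from 26.3 and 23.8 CPM to 16.1 and 17.9 CPM, and HOXA6 from 13.2 and 10.5 CPM to 9.76 and 7.26 CPM. HOXB7 went from 21.8 and 22.6 CPM to 12 and 12.5 CPM, HOXC11 from 19.6 and 17.7 CPM to 9.34 and 11.7 CPM, and HOXC13 from 13.2 and 12.2 CPM to 9.21 and 6.86 CPM. In each of these 10 the highest combination library lay below the lowest control, as it did in 42% of all genes tested. They were named for having passed the test in that direction. The members that did not pass the test included HOXC6, at 15.6 and 13.9 CPM and then 12.6 and 13.8 CPM, HOXC4, at 22.96 and 26.8 CPM and then 20.9 and 23.9 CPM, and HOXC12, at 2.19 and 3.37 CPM and then 3.09 and 1.88 CPM. HOXB3 was at 27.99 and 22.2 CPM and then 19.6 and 20.1 CPM.

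The most abundant HOX gene, HOXB9, went from 307 and 325 CPM to 162 and 153 CPM, and its log2 fold change of -0.95 ± 0.10 (adjusted p = 2.93e-09) was short of 2-fold. HOXD9, HOXD10, HOXD11, HOXA6, HOXA7, HOXA10, HOXA13, HOXB7, HOXC11 and HOXC13 also passed the test below 2-fold, with log2 fold changes from -0.95 for HOXD9 to -0.43 for HOXA6. Not every member fell. HOXA5 was at 53.8 and 43.9 CPM with R1881 alone and 50.0 and 54.5 CPM with the combination, and HOXA9 at 45.4 and 41.9 CPM and then 39.7 and 55.2 CPM, and in both the groups overlapped. HOXD8 was higher by the test but not by 2-fold, at 12.8 and 12.6 CPM and then 16.2 and 17.8 CPM, a log2 fold change of 0.48 ± 0.15 (adjusted p = 0.00786). HOXA2 was at 1.16 and 1.23 CPM and then 2.18 and 2.24 CPM, a log2 fold change of 0.94 ± 0.37 (adjusted p = 0.0289). The luminal markers KLK2 and KLK3 were also called lower, at -1.71 and -1.75, and the list summed to 326 to 424 CPM.

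The combination was called to lower 6 members under both labels, HOXA3, HOXA4, HOXA11, HOXB5, HOXB6 and HOXD13. They were 54.5% of the 11 in C4-2 and 50% of the 12 in the LNCaP-labelled libraries. Over all genes tested, 12.8% were called lower in C4-2 and 11.3% in the LNCaP-labelled libraries. The share of all genes called lower under both was not computed, and these single-line shares do not stand in for it. The overlap is therefore given without a background. In C4-2, HOXA3, HOXA4, HOXA11 and HOXD13 each lost the call without at least 1 library. HOXA3 and HOXD13 also fell short of 2-fold in the LNCaP-labelled libraries without combination replicate 1. HOXB5 had log2 fold changes of -2.65 ± 0.35 and -2.53 ± 0.17 and HOXB6 of -2.02 ± 0.30 and -1.89 ± 0.14, and the differences between the labels were -0.18 ± 0.35 and -0.17 ± 0.28. Over both lines, the difference between the combination effects was called for 8 of 34 members, 4 in each direction, where 11.4% of all genes tested were called higher and 13.9% lower. HOXB9 had a difference of 2.55 ± 0.14 (adjusted p = 1.47e-12), having gone up 3.13-fold in C4-2 and down in the LNCaP-labelled libraries. HOXD8 had 1.60 ± 0.40, and HOXC8 1.18 ± 0.38, which without C4-2 control replicate 2 or C4-2 combination replicate 1 was 0.99 or 0.92 and lost its call. HOXB8 had 2.64 ± 0.69 (adjusted p = 0.00269), but it rested on 8 and 15 counts in the C4-2 groups. HOXA5 had -2.48 ± 0.24 (adjusted p = 1.03e-08), with a fall in C4-2 and overlapping groups in the LNCaP-labelled libraries. HOXA6 had -1.63 ± 0.43, HOXC6 -1.33 ± 0.19 and HOXC12 -1.24 ± 0.35. HOXC12 lost its call without LNCaP control replicate 1 (-0.86, adjusted p = 0.0585) or LNCaP combination replicate 1 (-0.88, adjusted p = 0.0593).

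**Figure D5:**
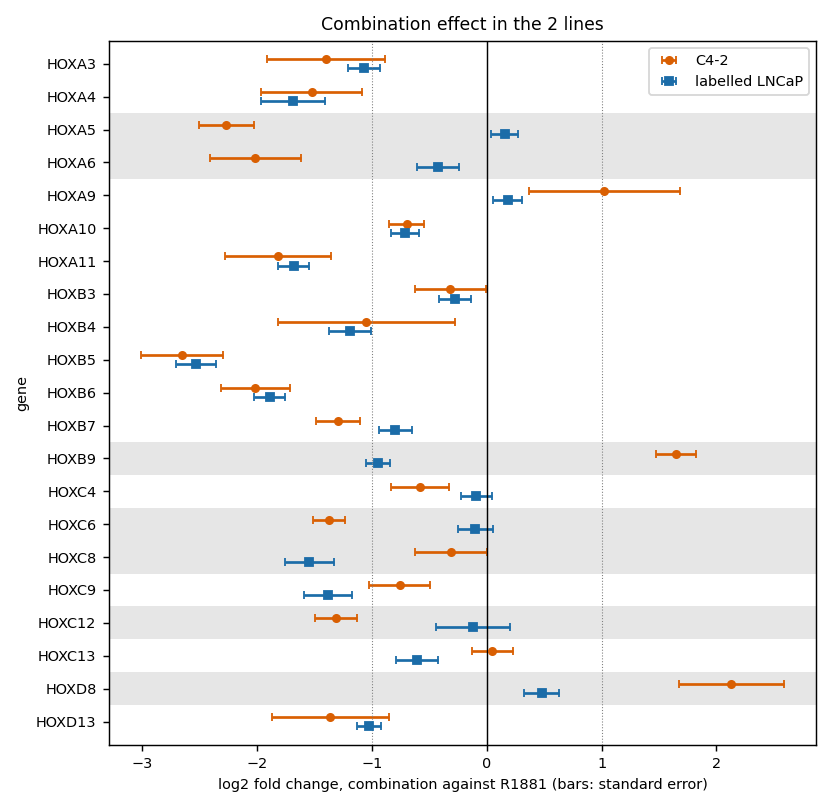
Log2 fold change of the combination against R1881 alone, with standard error, for 21 HOX genes tested in both lines (circles: C4-2, squares: LNCaP-labelled; dotted lines: 2-fold). Grey bands mark the genes whose effects were called different, among them HOXB9, at 1.65 in C4-2 and -0.95 in the LNCaP-labelled libraries.

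Counts over the gene lists that follow stand beside these shares of all genes tested. Between the lines, 24.3% were called higher and 26.2% lower in C4-2, with the combination in C4-2 8.87% and 12.8%, and with the combination in the LNCaP-labelled libraries 7.44% and 11.3%. The non-coding RNAs of the clusters were measured in the same way. Of 18 listed, 14 were tested between the lines, with 13 called lower and 1 higher in C4-2. Only 6 of the 14 also passed the filter in the C4-2 libraries. The others, HOTAIR included, passed only because of the LNCaP-labelled libraries. All of those were called lower, as genes kept for being high in that group must tend to be. HOTAIR, transcribed between HOXC11 and HOXC12 and known for binding Polycomb complexes, had a mean of 13.01 CPM in the LNCaP-labelled R1881 libraries and 0.0469 in C4-2. HOXC13-AS, at the HOXC13 end of its cluster, was the one higher, at 9.25 against 1.41 CPM, a log2 fold change of 2.75 ± 0.24. With the combination in C4-2, 4 of 6 tested were called lower. HOXC13-AS fell to 2.74 CPM (-1.78 ± 0.22), and HOXA-AS3, an antisense RNA of the middle of the HOXA cluster, from 1.69 to 0.324 CPM (-2.35 ± 0.51). HOXA11-AS and HOXB-AS3 were the other two, at -1.65 ± 0.55 and -1.64 ± 0.47. Namoline and TCE-5002 each lowered 3 of 6, HAGLR, HOXB-AS3 and HOXC13-AS, where 6.88% and 6.8% of all genes tested were called lower. HOXC13-AS was at 3.78 and 3.13 CPM. The other calls rested on low levels. HAGLR had means of 1.57 CPM with R1881 alone, 0.385 with namoline and 0.476 with TCE-5002 (edgeR adjusted p = 0.0314 and 0.0481). HOXB-AS3 had means of 1.85, 0.807 and 0.557 CPM in the same order (adjusted p = 0.0483 and 0.0097). In the LNCaP-labelled libraries the combination lowered 2 of 14, HOTAIRM1 (-1.24 ± 0.19) and HOXC-AS3 (-1.89 ± 0.56). Because counting used no strand, fragments on exons shared by an antisense RNA and a HOX gene could be assigned to neither and were left out.

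Of 12 genes that flank the clusters, 10 were tested between the lines, and 4 were called higher and 1 lower in C4-2. With the combination in C4-2, 2 of 10 were lower and 1 higher. PRAC1 and PRAC2, small genes of prostate and colon that lie beyond HOXB9, were the 2 lower, from 5.56 to 1.71 CPM and from 7.09 to 2.30 CPM, with log2 fold changes of -1.74 ± 0.27 and -1.64 ± 0.26. Both were also lower with the combination in the LNCaP-labelled libraries, from 2.07 to 0.953 CPM and from 1.34 to 0.461 CPM. SKAP1, on the far side of the HOXB cluster, was the one higher in C4-2, from 0.807 to 1.81 CPM.

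Among the 9 TALE cofactor genes, 5 were called lower in C4-2 than in the LNCaP-labelled libraries under R1881. Of these, MEIS2 and MEIS3 passed the filter only because of the LNCaP-labelled libraries, which favours a call in this direction. MEIS2 was at 0.0469 against 26.7 CPM, MEIS3 at 0.191 against 17.4 CPM and PKNOX2 at 0.803 against 17.2 CPM. In C4-2, the combination lowered 2 of 7 tested. MEIS1, a cofactor of HOX proteins of the high paralogue groups, fell from a mean of 10.8 to 2.23 CPM (log2 fold change -2.29 ± 0.20). In the LNCaP-labelled libraries it was not called, at 10.2 and 11.7 CPM, and the difference between the lines was -2.58 ± 0.26.

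Of 24 Polycomb genes, 7 were called lower and 2 higher in C4-2 than in the LNCaP-labelled libraries. The lower ones included CBX2, a reader of H3K27 methylation, with a log2 fold change of -2.37 ± 0.10, PHF19 at -2.36 ± 0.12, PCGF6 at -2.24 ± 0.12 and RBBP7 at -1.67 ± 0.09. EZH2, the H3K27 methyltransferase, had means of 93.8 CPM in C4-2 and 108 CPM in the LNCaP-labelled libraries. With the combination in C4-2, 3 were higher and 1 lower. PHF1 went from 42.8 to 142 CPM (1.70 ± 0.12), PCGF1 from 11.1 to 27.3 CPM (1.27 ± 0.15) and EZH1 from 41.9 to 102 CPM (1.26 ± 0.11), and JARID2, which recruits PRC2, from 39.4 to 11.6 CPM (-1.78 ± 0.14). In the LNCaP-labelled libraries, 4 were lower and 1 higher, with CBX2 at -1.64 ± 0.11, CBX8 at -1.36 ± 0.15 and CBX6 at -1.06 ± 0.11 among the lower, and EED the one higher. Of 11 activators, mostly Trithorax-type genes, 4 were lower and 2 higher in C4-2 at the start, with WDR5 at -1.76 ± 0.09 and KDM6A, an H3K27 demethylase, at 1.58 ± 0.09. With the combination in C4-2, 0 of the 11 were called. There, 7 passed the test below 2-fold, all of them higher, and the share of all genes that did so is not given. In the LNCaP-labelled libraries, 1, ASH2L, was called higher with the combination (1.20 ± 0.11).

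Retinoic acid switches on HOX genes of low paralogue number in embryos. Of 16 retinoid genes, 13 were tested between the lines, with 7 called lower and 3 higher in C4-2. Of the 7, CRABP2, CYP26A1 and STRA6 passed the filter only because of the LNCaP-labelled libraries. ALDH1A2, which makes retinoic acid, was at 0.621 against 22.9 CPM, and CYP26B1, which degrades it, at 0.554 against 14.9 CPM, while ALDH1A1 was at 110 against 0.163 CPM. With the combination in C4-2, 3 of 10 were lower. DHRS3, a retinaldehyde reductase, went from 27.4 to 8.13 CPM (-1.77 ± 0.20), ALDH1A3 from 27.6 to 9.06 CPM (-1.63 ± 0.14) and RARB from 4.91 to 1.77 CPM (-1.49 ± 0.26). DHRS3 was also lower with namoline (4.23 CPM, -2.70 ± 0.22) and with TCE-5002 (13.3 CPM, -1.04 ± 0.19). In the LNCaP-labelled libraries 4 of 12 were lower, among them CYP26B1 (-1.84 ± 0.19) and DHRS3 (-1.53 ± 0.21). Of 6 ParaHox and CDX genes, 2 were tested between the lines. PDX1 was not called, at 0.12 ± 0.22. CDX2, an intestinal activator of HOX genes, was called lower in C4-2 and passed the filter only because of the LNCaP-labelled libraries. Its mean was 50.6 CPM in the LNCaP-labelled R1881 libraries and 0.406 in C4-2. With the combination it fell to 13.7 CPM in the LNCaP-labelled libraries (-1.83 ± 0.13).

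Of the inhibitors' targets, the transcripts of KDM1A and KDM7A in the same libraries are given here. KDM1A had means of 74.7 CPM in the C4-2 controls, 122 under namoline, 99.1 under TCE-5002 and 73.3 under the combination, and 115 and 150.5 CPM in the LNCaP-labelled R1881 and combination libraries. KDM7A had means of 99.4, 60.2, 65.8 and 263 CPM in the C4-2 groups in the same order, and 61.1 and 54.2 CPM in the LNCaP-labelled ones. The combination raised KDM7A in C4-2 by a log2 fold change of 1.38 ± 0.12. An inhibitor acts on the protein, so these values do not check the treatment.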

How the data were processed

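Polyadenylated RNA was sequenced in paired ends from 12 libraries of cell lines. Per the study's methods and the file headers, the authors quality-filtered and trimmed the reads, aligned them with STAR and counted fragments per gene with featureCounts 1.5.0-p1 against Ensembl release 83 (GRCh38), and the deposited values are raw counts. Fragments on several genes were not counted. Groups were taken from the sample titles, because the labels' treatment text describes an siRNA step. Replicate numbers did not pair the libraries. Members and gene lists were chosen with earlier results of these data known.

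Counts were tested in R 4.3.3 with edgeR 4.0.16 (quasi-likelihood F test, TMM scaling, low-count filter, Benjamini-Hochberg adjustment over all genes tested), on the 8 C4-2 libraries, the 4 LNCaP-labelled ones, or the 8 R1881 and combination libraries of both lines. A call needed an adjusted p under 0.05 and a log2 fold change of at least 1. The standard error is the log2 fold change over the root of F. Genes at 0 were given bounds at a floor of 3 counts per library, which, like the exact 95% intervals of ratios of counts, covers counting error only. Members reaching a mean of 1 CPM in any group were described per library, the lists by counts and up to 4 of the largest changes. Alternatives were RLE scaling, no filter, the likelihood ratio test, DESeq2 1.42.0, a lowess correction for GC content, a replicate block, other sets of libraries and leaving out each library. The procedure was tested on simulated data. Promoters came from RefSeq. Some genes are not reported here.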

Additional observations from a re-analysis of the deposited data

Results flagged for a closer look

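The effect of the combination differed between C4-2 and the LNCaP-labelled libraries for 8 members, by edgeR's test of the difference itself. That was 4 of 34 in each direction, where 11.4% of all genes tested were called higher and 13.9% lower. Over all 34, the number of members is near the background. Of these 34, 12 passed the filter only with the LNCaP-labelled libraries, HOXB8 among them. Those 12 had few or 0 counts in C4-2, which left little room for a call. As C4-2 minus LNCaP-labelled log2 fold changes, the difference was 2.55 for HOXB9, 2.64 for HOXB8, 1.60 for HOXD8 and 1.18 for HOXC8. It was -2.48 for HOXA5, -1.63 for HOXA6, -1.33 for HOXC6 and -1.24 for HOXC12. HOXB9 was at 1.65 ± 0.17 in C4-2, where it was called, and at -0.95 ± 0.10 in the LNCaP-labelled libraries, where it passed the test but was short of 2-fold. HOXB8 rests on at most 9 counts per C4-2 library.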

How the results depend on the processing

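Of 102 gene results, 75 kept their call under every alternative, of which each comparison had 11 to 16, and 0 reversed. The number of members called higher with TCE-5002 went from 1 to 0 with the GC correction. Members with a higher interaction numbered 2, and 5 with no low-count filter and with all 12 libraries in the fit. Leaving out single libraries gave 2 higher and 30 to 31 lower between the lines, 0 and 2 to 3 with namoline, 0 to 1 and 2 to 3 with TCE-5002 (0 higher without C4-2 R1881 replicate 2), 2 and 8 to 11 with the combination in C4-2, 2 to 3 and 5 to 7 for the interaction, 0 and 11 to 12 in the LNCaP-labelled libraries, and 3 to 4 in each direction for the difference between the lines. DESeq2 called 9 members lower with the combination in C4-2 and 5 for the interaction. The replicate numbers did not pair the libraries, with correlations of replicate differences from -0.094 to 0.103. With the replicate block, 3 members had a higher and 7 a lower interaction, and the other counts of calls did not change. On raw library totals, the summed level of the 38 members was 1171 CPM for LNCaP-labelled R1881, 145.2 for C4-2 R1881, 120.4 for namoline and 91.2 for the combination in C4-2. With RLE scaling it was 630.6 CPM for the LNCaP-labelled combination, and 137.4, 127.1 and 94.89 CPM for R1881, namoline and the combination in C4-2. The cause of these changes was not tested. Low counts limit the C4-2 values of HOXD13, HOXA3, HOXA4, HOXB8 and HOXD8.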
